A study of Mus musculus with 12 samples.

Results

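The cytosolic ribosome is built from ribosomal RNA and a fixed set of ribosomal proteins, and the mRNAs of these proteins were followed across the cartilage of the developing mouse forelimb. The genes were taken by symbol from the table of expression values (*Rpl* or *Rps* followed by a number, with *Rpsa*, *Rplp0*, *Rplp1*, *Rplp2* and *Fau*, and no pseudogene symbols). Of 88 symbols that matched, 82 had at least 5 NRPKM in at least 3 of 12 libraries and are described here, 49 of the large subunit and 33 of the small subunit. They are 82 of the 36186 rows of the table. NRPKM is RPKM (reads scaled to transcript length and to library size) that the authors normalized once more between libraries. The 6 symbols left out were *Rpl10l*, *Rpl3l*, *Rps12l1*, *Rps12l2*, *Rps3a2* and *Rps3a3*, of which *Rpl3l* reached 0.618 NRPKM at most and the others were listed at 0 in all 12 libraries. In 81 of the 82 genes every library was at 5 NRPKM or more. The exception was *Rpl39l*, which passed through its WT proliferative and WT hypertrophic libraries alone, so its differences from the other groups follow in part from the filter and count as no support for a difference. The symbol rule leaves out *Rpl36al* and *Gnb2l1*, which also encode ribosomal proteins.

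All 12 libraries came from forelimb zeugopods (the segment of ulna and radius) of E15.5 embryos on a mixed 129 and CD-1 background, with 3 libraries per group. WT resting, WT proliferative and WT hypertrophic are the compartments of the growing cartilage of wild type embryos, in the order in which a chondrocyte passes through them. The *aadd* libraries came from embryos homozygous for frameshift mutations in the first exons of *Hoxa9*, *Hoxa10*, *Hoxa11*, *Hoxd9*, *Hoxd10* and *Hoxd11*, and hold the whole chondrocyte population of the mutant elements because separate compartments were not visible. In the GEO labels the hypertrophic libraries appear as hyperproliferative and the *aadd* libraries as resting. Cells were cut out by laser capture microdissection, some perichondrium included, and the methods of the study call the sets of compartments independent without saying whether they came from separate embryos, so that the P values measure the spread between these libraries, which may in part be technical.

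The values rest on an estimated 1890000 to 3240000 reads per library, so that a single read on 1 kb of transcript corresponds to 0.309 to 0.530 NRPKM. For the ribosomal protein genes the median came to 288 reads in a gene's poorest library and 545 in its richest, and no gene other than *Rpl39l* fell under 42.7 reads. A list of 9 cartilage genes summed to 2487 to 3602 NRPKM in WT resting, 2879 to 4731 in WT proliferative, 654 to 2902 in WT hypertrophic and 2293 to 2844 in *aadd*. A list of 10 hypertrophic genes summed to 1808 to 3907 NRPKM in WT hypertrophic and to at most 956 in any other library. WT hypertrophic replicate 1 stood apart from replicates 2 and 3 throughout. It had 2902 NRPKM of cartilage genes against 654 and 932, and 51.5 NRPKM of 10 osteoclast genes against 1351 and 995. Endothelial genes summed to 21.0 NRPKM in it against 288 and 200, macrophage genes to 24.0 against 285 and 231, and erythroid genes to 130 against 450 and 482, while no library of the other groups passed 36.3, 44.4 and 216 NRPKM. The part of these other cells in the values below was not tested, and the fold changes and list counts that use the hypertrophic group are also given without replicate 1. In such bulk samples a smaller share of one cell type and less RNA per cell cannot be told apart.

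Ribosomal proteins are needed in nearly equal numbers, and their mRNAs are among the most abundant in any growing cell. Most of these mRNAs start with a run of pyrimidines at the cap, the 5′ terminal oligopyrimidine (TOP) motif, through which mTOR and the binding protein Larp1 adjust their translation. In cartilage, protein output is heavy in every compartment, since chondrocytes secrete the matrix in which they lie. Several of the genes have close paralogs, and nearly all have processed pseudogenes elsewhere in the genome.

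The starts of 9 genes are shown because the results below turn on them, either as the steadiest or most abundant genes or as the genes that differed, with the paralog pairs side by side. Each line is 30 bases of the transcript strand, 15 before and 15 from the annotated start on, from RefSeq (GRCm38.p6), and capitals mark at least 6 bases in a row of C and T alone, read from a base within 5 of the annotated start on, so that a longer run is in capitals only from 5 bases before the start.
*Rpl10*, chrX:74270801-74270830, plus strand: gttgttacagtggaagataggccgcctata
*Rpl41*, chr10:128549154-128549183, minus strand: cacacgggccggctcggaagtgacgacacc
*Rpl7a*, chr2:26910792-26910821, plus strand: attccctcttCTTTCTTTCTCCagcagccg
*Rps28*, chr17:33824548-33824577, minus strand: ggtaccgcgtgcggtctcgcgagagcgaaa
*Rpl34*, the second of 2 listed starts, chr3:130730323-130730352, minus strand: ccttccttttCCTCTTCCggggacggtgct
*Rps27*, chr3:90213634-90213663, minus strand: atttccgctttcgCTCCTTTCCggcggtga
*Rps27l*, the first of 2 listed starts, chr9:66946071-66946100, plus strand: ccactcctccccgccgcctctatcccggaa
*Rpl39*, chrX:37085208-37085237, minus strand: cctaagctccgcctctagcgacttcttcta
*Rpl39l*, chr16:10170213-10170242, plus strand: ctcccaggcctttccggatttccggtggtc

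Of the 82 genes, 62 had an entry in the promoter table, and 27 of these (43.5%) had such a run at a listed start, against 15.9% of 27025 genes with an entry. Only the transcript strand was searched, since the motif is a feature of the RNA. The share was 40.5% for the large subunit and 48% for the small subunit, against 8.70% of 69 mitochondrial ribosomal protein genes and 16.7% of 24 translation initiation factor genes. Counted in this way, *Rps27* had a run of 9 bases and its paralog *Rps27l* had none. The windows of *Rps27l* and *Rpl39l* do each hold a run of C and T that begins farther before the start. The window of *Rpl39* holds a run that begins farther after it. This rule counts none of these runs. *Rps6*, the substrate of the S6 kinases, had a run of 10 bases and *Fau*, which encodes a ubiquitin-like protein fused to a small subunit protein, one of 16. An annotated start that is off by a few bases hides a run, so that no match says only that these letters are not in the window. The other 20 genes had no entry that matched.

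The 82 genes together made up 6.02% (*aadd* replicate 2) to 7.41% (WT proliferative replicate 2) of all NRPKM in a library. Their summed level was 18754, 19679 and 17011 NRPKM in the 3 WT resting libraries, 20610, 21141 and 19263 in the WT proliferative, 20289, 18653 and 18454 in the WT hypertrophic and 16662, 16081 and 17673 in the *aadd* libraries. As a share of all NRPKM this was 6.84% ± 0.438 (SD, n = 3) in WT resting, 7.27% ± 0.196 in WT proliferative, 6.77% ± 0.471 in WT hypertrophic and 6.26% ± 0.239 in *aadd*. The proliferative compartment was the highest and *aadd* the lowest, and WT resting replicate 3 lay below both other resting libraries. The summed large subunit was 1.49 to 1.70 times the summed small subunit in every library.

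Single genes differed much more among each other than across libraries. *Rpl41*, which encodes the smallest ribosomal protein, had the highest mean level at 688 NRPKM, followed by *Rpl10* at 469, *Rpl28* at 429, *Rpl39* at 383 and *Rps15* at 377. The lowest means belonged to *Rpl39l* at 4.12, *Rpl7l1* at 28.2, *Rps15a* at 33.1, *Rps3* at 51.1 and *Rpl37* at 63.7 NRPKM. The median of the means was 224 NRPKM and 66 of the 82 genes had a mean of 100 to 400. These levels are per length, and 2 limits touch them. The first is the transcript length. For *Rps15a*, among the lowest, the annotation used here lists 5130 bases, of which 390 are coding. The part of length in its low level was not tested. The second limit is alignment. Reads with several alignments were removed by the authors, and the table lists 982 pseudogene rows that name one of the genes as parent, with a median of 7 and at most 89 (*Rps2*) per gene. A gene whose reads also align to a copy would be listed too low, and levels between genes are uncertain for that reason. Across the genes, the number of pseudogene rows and the mean level had a Spearman correlation of 0.227, as a description over genes that are not independent. The pseudogene rows themselves took up little, at 95.5 to 154 NRPKM in all per library, and 8 of them reached 5 NRPKM in at least 3 libraries.

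**Figure D1:**
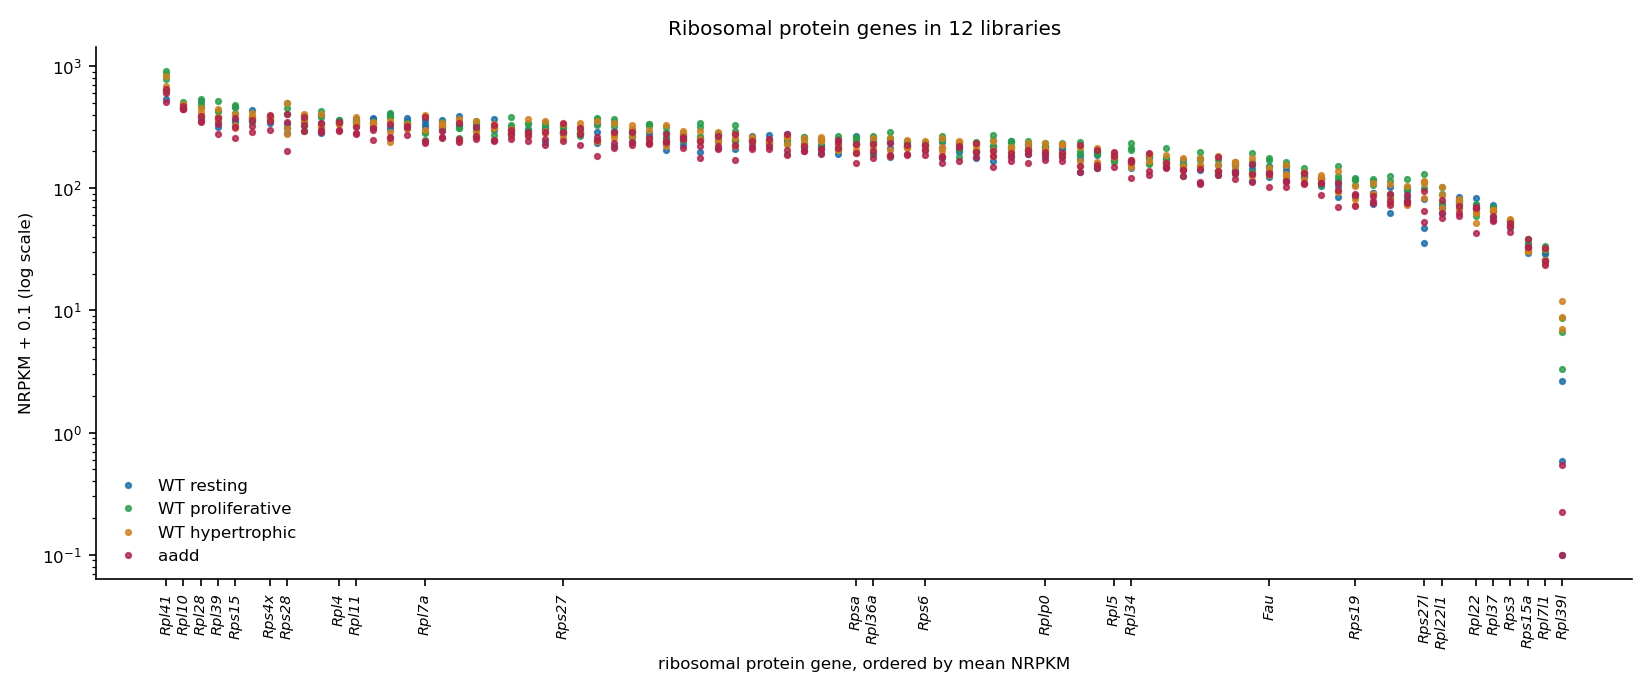
Level of each of the 82 ribosomal protein genes in each of the 12 libraries, as NRPKM + 0.1 on a log axis, with genes ordered by mean level, points coloured by group and names given for part of the genes. For 77 genes the highest library was less than 2 times the lowest, while *Rps27l* and *Rpl39l* at the right spread widely.

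Across the 12 libraries the genes were steadier than most. The SD of log2(NRPKM + 0.1) had a median of 0.182 over the 82 genes, against 0.388 over the 10936 rows tested and 0.320 over 307 other rows with a mean of at least 86.3 NRPKM. Within groups the median SD was 0.156 for the ribosomal protein genes and 0.323 for all rows tested. The steadiest was *Rpl10*, an X-linked gene of the large subunit whose protein joins late in assembly, at 450, 455 and 479 NRPKM in WT resting, 486, 485 and 507 in WT proliferative, 490, 447 and 465 in WT hypertrophic and 473, 444 and 446 in *aadd*. Its highest library was 1.14 times its lowest and its SD of 0.0635 was the smallest of all rows tested. *Rpl4*, with an SD of 0.0933, *Rps25* at 0.103, *Rps6* at 0.106 and *Rps3* at 0.106 followed. The widest spreads belonged to *Rpl39l* at 2.62, *Rps27l* at 0.590, *Rps28* at 0.390, *Rpl36* at 0.319 and *Rps21* at 0.308.

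The other X-linked genes were *Rps4x*, *Rpl36a* and *Rpl39*. *Rps4x*, a small subunit gene of the X chromosome, was at 370 ± 24.3 NRPKM (SD, n = 3) in WT resting, 368 ± 7.54 in WT proliferative, 381 ± 14 in WT hypertrophic and 349 ± 48.7 in *aadd*. *Rpl36a* was at 229 ± 32.9, 233 ± 39.7, 232 ± 21.7 and 202 ± 26.7 NRPKM in the same order. *Rpl39* was at 350 ± 31.3, 457 ± 48.8, 398 ± 45.6 and 329 ± 48.4, and was the only one of the 4 X-linked genes with a difference of more than 0.2 on the log2 scale in any comparison, at 0.39 ± 0.17 (SE) between WT proliferative and WT resting (limma adjusted *P* = 0.307). All 3 proliferative libraries, at 432, 513 and 426 NRPKM, lay above the resting ones at 347, 382 and 320, and with a replicate block the unadjusted *P* was up to 0.05 (adjusted *P* = 0.243). The 82 genes lie on 20 chromosomes, with 14 on chromosome 7.

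The first comparison asks what changes as resting chondrocytes enter the proliferative columns. Most ribosomal protein mRNAs were slightly higher in the proliferative compartment. The mean was higher for 63 of the 82 genes and lower for 19, with a median log2 fold change of 0.140 (1.10-fold) against -0.058 over all rows tested, a shift that went to -0.0007 under quantile normalization of the libraries and to 0.073 without WT resting replicate 3. All 3 proliferative libraries lay above all 3 resting libraries for 27 genes (32.9%), against 9.83% of all rows, and below them for 5 (6.10%) against 14.2%. The median was 0.09 for the large subunit and 0.21 for the small subunit. A gene's change had a median SE of 0.166 on the log2 scale.

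Few single genes passed a threshold between these compartments. With the criteria of the study (unadjusted *P* up to 0.05 and FC of at least 2), limma called 2 of the 82 genes, *Rps27l* and *Rpl39l*, which is 2.44% against 5.53% of all 10936 rows tested. Because of the filter the call of *Rpl39l* counts as no support for a difference. Without the fold requirement 7 genes (8.54%) were higher against 7.11% of all rows, and 0 were lower against 9.94%. After Benjamini-Hochberg adjustment in limma no ribosomal protein gene had an adjusted *P* under 0.05, against 0.622% of all rows, and a block for the replicate number left the counts at 2 called and 8 higher. The 7 genes became 2 without WT resting replicate 3 and 4 without any one of the proliferative libraries, and under quantile normalization 3 were higher and 3 lower. They became 4 with no filter on low values and 11 with the libraries rescaled by the median of ratios, and with a variance trend 15 were higher and 1 lower. Of all 10936 rows, 956 were higher with that rescaling, and 804 were higher and 1043 lower with the variance trend. Under quantile normalization 960 of all rows were higher and 854 lower. Without WT resting replicate 3, 497 were higher, and 561 to 699 without a proliferative library. With no filter 1313 of 22491 rows were higher.

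The 7 genes that were higher were *Rpl41*, *Rps28*, *Rpl34*, *Rpl27*, *Rps12*, *Rps27l* and *Rpl39l*, and of these *Rpl41* and *Rps28* had a mean above the median of the family. *Rpl41* was at 641, 621 and 533 NRPKM in WT resting and 908, 862 and 786 in WT proliferative, a log2 fold change of 0.51 ± 0.16 (SE, adjusted *P* = 0.213). *Rps28*, a small subunit gene, was at 309, 336 and 284 against 407, 500 and 458 NRPKM, at 0.55 ± 0.16 (adjusted *P* = 0.195). For both genes the groups did not overlap. *Rpl34* differed by 0.45 ± 0.15, *Rpl27* by 0.44 ± 0.18 and *Rps12* by 0.40 ± 0.16, with adjusted *P* of 0.240, 0.293 and 0.286. *Rps28* and *Rpl41* no longer had an unadjusted *P* up to 0.05 without WT resting replicate 3 (0.49 and 0.43 on the log2 scale), nor did *Rpl41* without WT proliferative replicate 1 (0.46) or under quantile normalization (0.36, adjusted *P* = 0.477), or *Rps28* in the joint fit of 12 libraries (adjusted *P* = 0.377). *Rpl34*, *Rpl27* and *Rps12* lost it with no filter on low values, under quantile normalization (0.24 to 0.27) and without WT resting replicate 3 or WT proliferative replicate 2. *Rpl27* and *Rps12* also lost it with the replicate block (limma adjusted *P* = 0.260 and 0.267), *Rps12* without any one of the other libraries and *Rpl27* without any one other than WT resting replicate 1. Of the 5 genes that were lower without overlap, *Rpl7a* was at 333, 317 and 365 NRPKM in WT resting and 285, 286 and 248 in WT proliferative, at -0.31 ± 0.16 (adjusted *P* = 0.363), and the others were *Rps10*, *Rpl17*, *Rpl5* and *Rpl11*. *Rpl5* and *Rpl11*, whose proteins join 5S RNA in a particle that binds Mdm2, differed by -0.09 each.

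**Figure D2:**
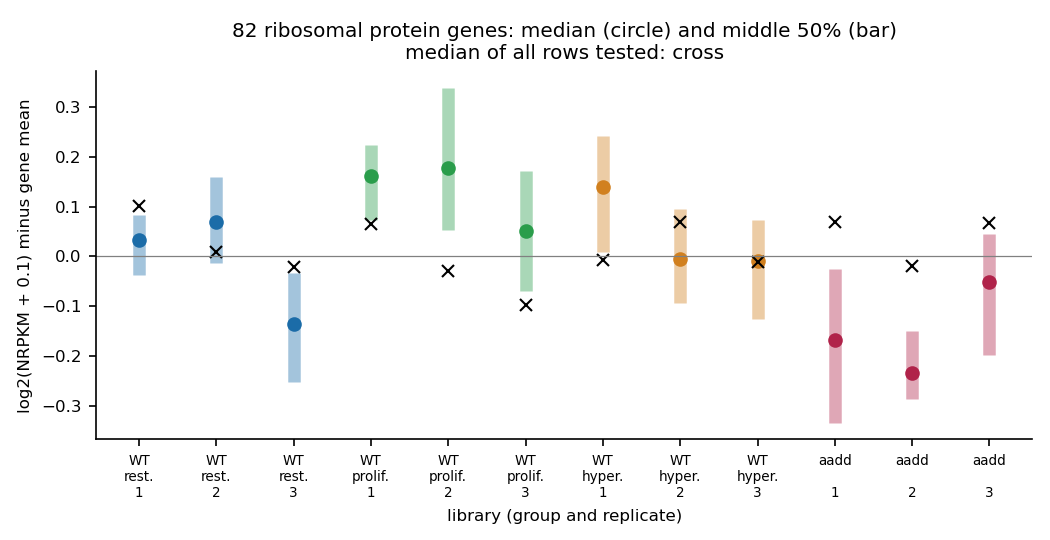
Deviation of the ribosomal protein genes from their own mean over 12 libraries, on the log2(NRPKM + 0.1) scale, with the median of 82 genes as a circle, the middle 50% as a bar and the median of all 10936 rows tested as a cross. The 3 proliferative libraries and hypertrophic replicate 1 lie above 0, and resting replicate 3 and the 3 *aadd* libraries lie below it, while quantile normalization brought the proliferative and resting groups to the same level.

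*Rps27l* stood out from the family. It encodes a close paralog of the small subunit protein Rps27 and is known as a target of p53. It was at 81.8, 35.6 and 46.9 NRPKM in WT resting, 113, 131 and 100 in WT proliferative, 111, 115 and 83.9 in WT hypertrophic and 52.9, 64.8 and 94.6 in *aadd*. Every proliferative and every hypertrophic library was above every resting library, and the *aadd* libraries overlapped the resting and hypertrophic ones and lay below the proliferative ones. The log2 fold change was 1.15 ± 0.32 (SE) between WT proliferative and WT resting (2.22-fold, limma adjusted *P* = 0.185) and 0.99 ± 0.34 between WT hypertrophic and WT resting (1.99-fold, adjusted *P* = 0.128), comparisons that share the resting libraries. Over the alternatives the first adjusted *P* ranged from 0.0821 to 0.422. The second comparison no longer had an unadjusted *P* up to 0.05 without any one of resting replicates 2 and 3 and hypertrophic replicates 1 and 2, with log2 fold changes of 0.72 to 0.93. The gene is at chr9:66946118-66949509 (mm10), and rested on 42.7 to 186 reads per library.

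*Rpl39l* was nearly absent from resting and mutant cartilage. The gene is a paralog of the X-linked *Rpl39*, lies at chr16:10170228-10174911 (mm10) and is best known from male germ cells. It was at 2.52, 0 and 0.486 NRPKM in WT resting, 8.54, 3.25 and 6.58 in WT proliferative, 6.91, 11.8 and 8.76 in WT hypertrophic and 0.446, 0.124 and 0 in *aadd*. All 6 proliferative and hypertrophic libraries were above all 6 resting and *aadd* libraries. These values stand for few reads, 4.21 to 25.9 per library in the 2 later compartments and at most 5.05 in the others. The fitted log2 fold change was 3.43 ± 1.12 (SE) for WT proliferative (limma adjusted *P* = 0.223) and 4.08 ± 1.11 for WT hypertrophic (adjusted *P* = 0.0818) against WT resting, and fell to 1.96 and 2.52 with a pseudocount of 1 in place of 0.1. Without WT hypertrophic replicate 1 the second was 4.26 (adjusted *P* = 0.0676). The first no longer had an unadjusted *P* up to 0.05 without proliferative replicate 1 (3.14) or 3 (3.33). As said above, the filter on low values could keep this gene only because it was high in those compartments. Reads that *Rpl39l* shares with *Rpl39* could have been removed or split.

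The second comparison follows proliferative chondrocytes into hypertrophy. The ribosomal protein mRNAs were slightly lower in the hypertrophic compartment, with a lower mean for 53 of 82 genes and a median log2 difference of -0.11 against 0.04 over all rows tested. Under quantile normalization the median was -0.0095 and the mean was higher for 40 genes. Limma called 0 of the 82 genes with the criteria of the study, against 9.67% of all rows. At an unadjusted *P* up to 0.05 alone 0 genes were higher, against 10.7%, and 1 gene (1.22%), *Rpl34*, was lower, against 8.6%. No row of the whole table had an adjusted *P* under 0.05 (0%). The hypertrophic libraries lay without overlap above the proliferative for 4 genes (4.88%) against 13.3% of all rows, and below for 13 (15.9%) against 10.9%. *Rpl34* was at 204, 235 and 213 NRPKM in WT proliferative and 169, 159 and 148 in WT hypertrophic, at -0.45 ± 0.16 (adjusted *P* = 0.228). It was not called with a replicate block (adjusted *P* = 0.342), nor without either of proliferative replicates 2 and 3 or hypertrophic replicates 2 and 3 (-0.46 to -0.39), nor under quantile normalization (-0.32, adjusted *P* = 0.298) or with no filter on low values (adjusted *P* = 0.458).

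Hypertrophic replicate 1 decided the size of this difference. Its median deviation was 0.140 on the log2 scale, close to 0.161, 0.177 and 0.051 in the proliferative libraries, while replicates 2 and 3 were at -0.005 and -0.009. Without replicate 1 the median log2 fold change was -0.19, 10 genes were lower and 1 was higher at an unadjusted *P* up to 0.05. It was -0.068 without WT proliferative replicate 2 and -0.070 without WT hypertrophic replicate 2. Among the 13 genes without overlap, *Rps19*, mutated in Diamond-Blackfan anaemia, was at 122, 117 and 106 NRPKM in WT proliferative and 104, 82.1 and 73.0 in WT hypertrophic, at -0.43 ± 0.20 (adjusted *P* = 0.295). *Rpsa*, which encodes a small subunit protein also known as the laminin receptor, was at 254, 242 and 263 against 195, 207 and 224 NRPKM, at -0.28 ± 0.16 (adjusted *P* = 0.362). *Fau* was at 177, 170 and 148 against 146, 135 and 129 NRPKM, at -0.27 ± 0.17 (adjusted *P* = 0.398). *Rpl7a* went the other way, at 285, 286 and 248 against 297, 394 and 387 NRPKM (0.39 ± 0.19, adjusted *P* = 0.310). Without hypertrophic replicate 1 the log2 fold changes were -0.50 for *Rpl34*, -0.57 for *Rps19*, -0.23 for *Rpsa*, -0.32 for *Fau* and 0.52 for *Rpl7a*, with limma adjusted *P* of 0.101, 0.0789, 0.357, 0.255 and 0.0910. *Rps19* and *Rpl7a* then had an unadjusted *P* up to 0.05, as they did with a variance trend, and *Rpl7a* also under quantile normalization.

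Between the 2 ends of the series, WT hypertrophic and WT resting, the ribosomal protein genes were close to level while much of the table was not. The median log2 fold change was 0.035 against -0.022 over all rows, and -0.0018 under quantile normalization. It was -0.019 without WT resting replicate 3, -0.016 without WT hypertrophic replicate 1 and 0.053 to 0.083 without any other one of the 6 libraries. The middle 50% of the genes lay between -0.01 and 0.11. Limma called 1 gene (1.22%), *Rpl39l*, against 13% of all rows. Because of the filter this call counts as no support for a difference. At an unadjusted *P* up to 0.05, 2 genes (2.44%) were higher, *Rpl39l* and *Rps27l*, against 12% of all rows, and 0 were lower, against 14.4%. No gene of the family had an adjusted *P* under 0.05 in limma, against 6.36% of all rows. The libraries did not overlap for 5 genes that were higher (6.10%) against 14.1%, and for 2 that were lower (2.44%) against 17.8%. Those 2 were *Rpl22*, at 83.3, 72.5 and 67.0 NRPKM in WT resting and 63.3, 51.7 and 62.8 in WT hypertrophic, and *Rpsa*, at 230, 266 and 228 against 195, 207 and 224.

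**Figure D3:**
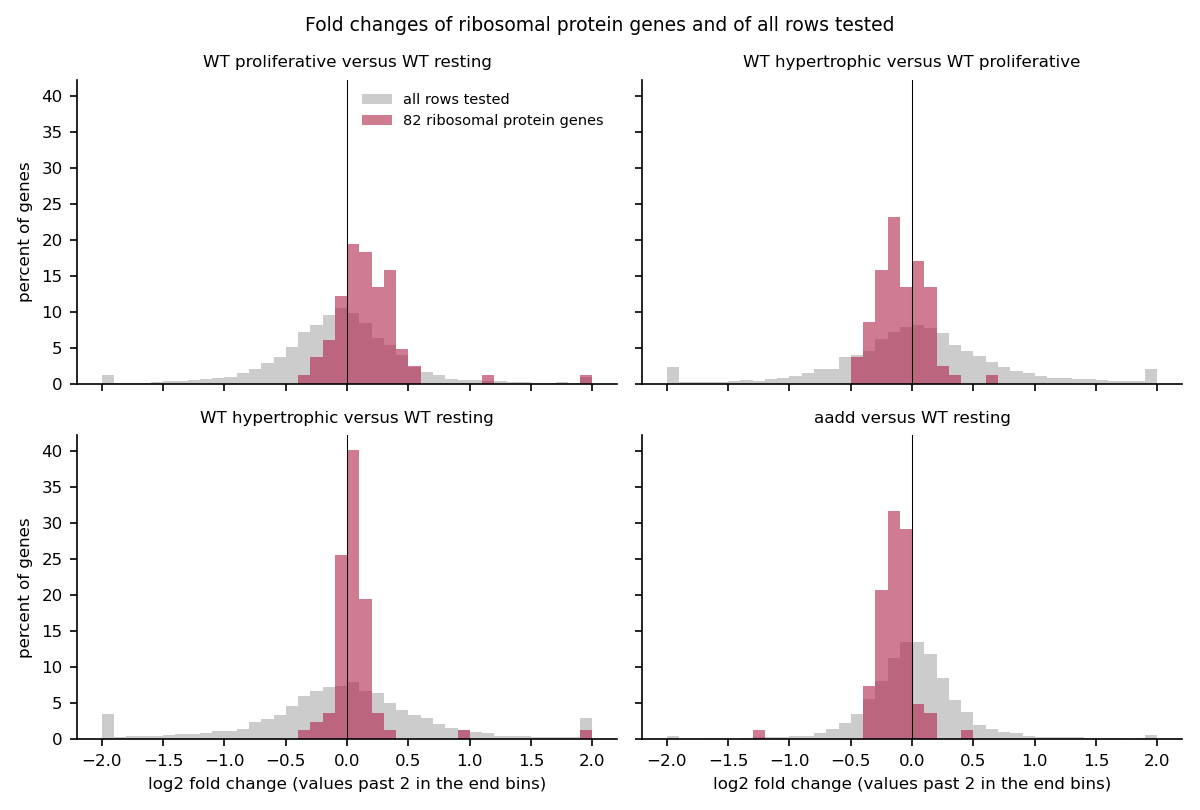
Distribution of log2 fold changes in each comparison, in percent of genes per bin of 0.1, for the 82 ribosomal protein genes and for all 10936 rows tested. The middle 50% of the family spans 0.121 to 0.295 against 0.399 to 0.734 for all rows, and the family lies mostly above 0 between WT proliferative and WT resting (a median of -0.0007 under quantile normalization) and mostly below 0 between *aadd* and WT resting.

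The last pairwise comparison sets *aadd* against WT resting, that is the whole chondrocyte population of the mutant elements against the resting compartment alone. A difference may come from the loss of the 6 Hox proteins or from the cells taken, and the design cannot tell these apart. The ribosomal protein mRNAs were for the most part slightly lower in the *aadd* libraries. The mean was lower for 74 of the 82 genes and higher for 8, with a median log2 fold change of -0.14 (0.909-fold, a fall of about 9%) against 0.008 over all rows tested. Under quantile normalization the median was -0.08 and the mean was higher for 23. Genes of the same library are not independent, so these counts are a description. By library the groups overlapped. The median deviation of the genes from their own mean was 0.033, 0.069 and -0.135 in WT resting replicates 1 to 3. In *aadd* replicates 1 to 3 it was -0.168, -0.234 and -0.051. Of the 4 groups, *aadd* had the lowest mean for 68 genes and the highest for 0, and WT proliferative had the highest for 51. The fall was shared by the large (-0.16) and small (-0.10) subunits. The median log2 fold change was -0.089 without WT resting replicate 2 and -0.20 without WT resting replicate 3.

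No single ribosomal protein gene passed a threshold in the mutant. Limma called 0 of the 82 genes (unadjusted *P* up to 0.05 and FC of at least 1.5) against 6.56% of all rows. At an unadjusted *P* up to 0.05 alone, 0 were higher and 0 were lower, against 5.22% and 4.36%, and 0 had an adjusted *P* under 0.05 in limma against 0.119%. The *aadd* libraries lay without overlap above WT resting for 0 genes, against 8.08% of all rows, and below for 6 (7.32%), against 7.34%. The 6 were *Rpl10a*, *Rpl11*, *Rpl18*, *Rpl27a*, *Rpl31* and *Rpl32*. *Rpl11* was at 367, 359 and 354 NRPKM in WT resting and 318, 282 and 279 in *aadd*, at -0.30 ± 0.15 (SE, adjusted *P* = 0.599). *Rps6* was at 228, 228 and 204 against 207, 185 and 226 NRPKM, at -0.10 ± 0.16 (adjusted *P* = 0.884), and the stalk gene *Rplp0* at 216, 216 and 179 against 197, 171 and 188, at -0.13 ± 0.16 (adjusted *P* = 0.834). Outside *Rpl39l* and *Rps27l*, the largest fall was 0.35 and the largest rise 0.15 on the log2 scale, with a median SE of 0.174.

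Across all 4 groups limma's moderated F test called 8 ribosomal protein genes (9.76%) at an unadjusted *P* under 0.05, against 31% of all rows. They were *Rpl39l*, *Rps27l*, *Rpl41*, *Rpl27*, *Rpl34*, *Rpl35*, *Rps12* and *Rpl29*. Only *Rpl39l* had an adjusted *P* under 0.05 (0.0120), against 13.8% of all rows, and *Rps27l* had 0.0731. The filter kept *Rpl39l* through its WT proliferative and WT hypertrophic libraries alone, so its *P* here counts as no support for a difference. A block for the replicate number left 3 of the 8 genes called, *Rpl39l*, *Rps27l* and *Rpl41*, and called no other.

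The paralog pairs were compared as ratios within each library, which takes out any factor common to the whole library. Both genes of a pair were measured in 4 pairs. *Rps27l* was at 28.0%, 12.5% and 16.8% of *Rps27* in WT resting, 36.5%, 41.0% and 31.0% in WT proliferative, 33.3%, 44.4% and 29.8% in WT hypertrophic and 21.8%, 22.7% and 27.9% in *aadd*. Every proliferative and hypertrophic ratio was above every resting and *aadd* ratio. The highest and lowest group means differed by 0.99 on the log2 scale (exact permutation test of the F statistic over 369600 arrangements, two-sided, *P* = 0.0290, 0.0579 after adjustment over 4 pairs). Here and below the adjustment counts the *Rpl39l* pair, a gene that the filter kept through the WT proliferative and WT hypertrophic libraries alone. That pair had the smallest *P*, so the adjusted *P* of *Rps27l* rests in part on it. *Rps27* itself was at 286 ± 6.42, 318 ± 7.81, 291 ± 37.5 and 290 ± 47.9 NRPKM (SD, n = 3) in the order of the groups, so that the ratio moved with *Rps27l*.

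*Rpl39l* was the smaller partner of *Rpl39* by far, at 2%, 0.652% and 1.57% in WT proliferative and 1.56%, 3.08% and 2.46% in WT hypertrophic, on NRPKM + 0.1. The group means differed by 5.01 on the log2 scale (exact permutation *P* = 0.0212, adjusted 0.0579), a value that depends on the 0.1 added. Because of the filter this *P* counts as no support for a difference. *Rpl22l1*, whose protein can replace Rpl22 in the large subunit, was about as abundant as *Rpl22*. It was at 87.8%, 94.1% and 94.1% of it in WT resting, 102%, 151% and 147% in WT proliferative, 162%, 168% and 109% in WT hypertrophic and 82%, 147% and 114% in *aadd*. All proliferative and hypertrophic ratios were above the resting ones, and the exact permutation *P* was 0.166 over the 4 groups (adjusted 0.166). *Rpl7l1*, a nucleolar relative of *Rpl7*, was at 13.4%, 12.9% and 13.3% in WT resting, 13.9%, 12.3% and 12% in WT proliferative, 11.9%, 10.1% and 9.99% in WT hypertrophic and 12%, 12.4% and 15.4% in *aadd* (exact permutation *P* = 0.0706, adjusted 0.0941). The paralogs *Rpl3l* and *Rpl10l* were at or near 0 throughout, next to *Rpl3* at 129 to 194 NRPKM and *Rpl10* at 444 to 507. Without WT hypertrophic replicate 1 the group means differed by 1.01 for *Rps27l*, 5.29 for *Rpl39l*, 0.56 for *Rpl22l1* and 0.39 for *Rpl7l1*, with adjusted exact permutation *P* of 0.0669, 0.0669, 0.255 and 0.0669.

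**Figure D4:**
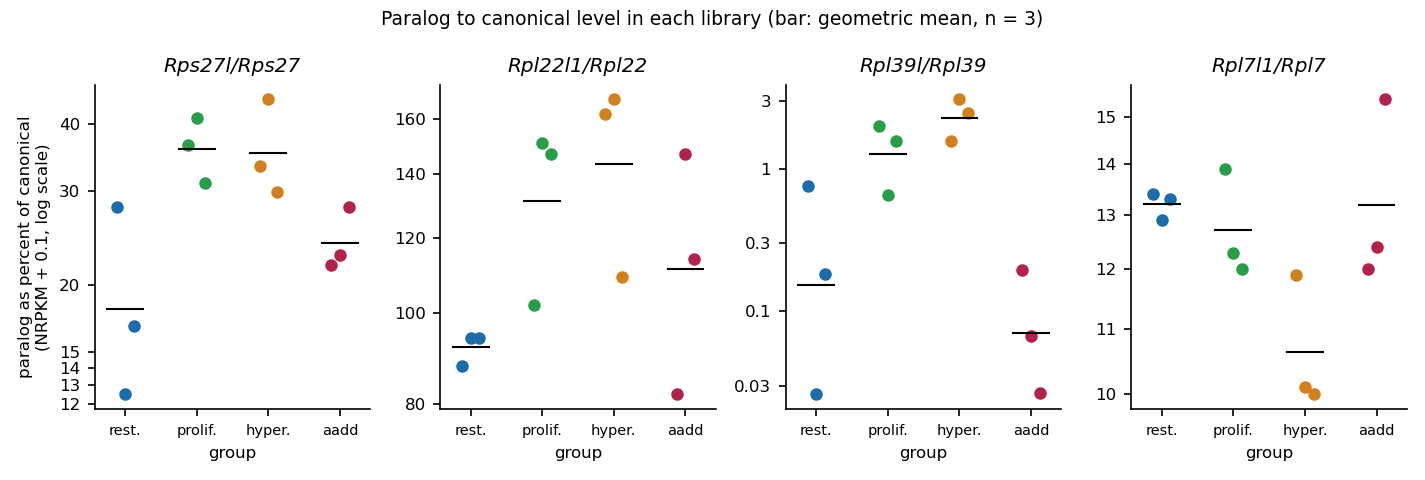
Level of each paralog as percent of its canonical gene, computed on NRPKM + 0.1 and shown on a log axis, with a point per library, a bar for the geometric mean of 3 libraries and a panel for each of 4 pairs. The *Rps27l* and *Rpl39l* ratios of WT proliferative and WT hypertrophic lie above nearly all of the resting and *aadd* ratios, with the resting *Rpl39l* ratio of 0.756% inside the proliferative range.

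The small shifts of the family were also read by the length of the genes. The 80 genes other than *Rpl39l* and *Rps27l* were split by coding length, and the 20 shortest (up to 374 bases) were set against the 20 longest (from 615 bases), a split made after the values were seen. Between WT proliferative and WT resting the short genes had a median log2 fold change of 0.31, with 20 of 20 higher, and the long genes 0.04. Between WT hypertrophic and WT proliferative the short genes had -0.20, with 2 of 20 higher, and the long genes 0.01. Between WT hypertrophic and WT resting they had 0.10 and 0.04. Between *aadd* and WT resting the short genes had -0.09 and the long genes -0.13, so the fall in the mutant was not larger in the short genes. The ratio of short to long genes (geometric means) was 1, 1.04 and 0.906 in the 3 WT resting libraries, 1.12, 1.25 and 1.18 in WT proliferative, 1.15, 0.980 and 0.958 in WT hypertrophic and 0.808, 1.09 and 1.18 in *aadd*. Libraries of one group lay far apart on this measure, replicate 1 of *aadd* below and replicates 2 and 3 above all resting libraries.

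A count of genes known from other tissues ordered the libraries in much the same way. What this count measures was not tested. Genes of sensory receptor and keratin-associated families that have a single exon are known from sense organs and hair. The number of them listed above 0, of 1268 in the annotation, was 340, 341 and 162 in WT resting, 501, 527 and 368 in WT proliferative, 527, 183 and 119 in WT hypertrophic and 144, 520 and 509 in *aadd*. The 4 libraries with under 200 such genes were the 4 with a short to long ratio under 1. A list of 73 nuclear genes of the respiratory chain, which are also short and abundant, was split at its own lengths (up to 297 and from 600 bases). It gave ratios of 1.58, 1.68 and 1.47, then 1.81, 2.29 and 1.73, then 1.81, 1.44 and 1.46, and 1.29, 1.65 and 1.92 in the same order of libraries. For 9651 other genes tested, short meant up to 867 bases and long from 2241. Their ratio was 0.926 to 1.26 and did not follow the count, with 1.26 in WT hypertrophic replicate 2. With such unlike limits it does not show whether other genes as short as the ribosomal protein genes followed the count. The libraries fall into clusters on this count, so no correlation is given, and its part in the results was not tested.

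**Figure D5:**
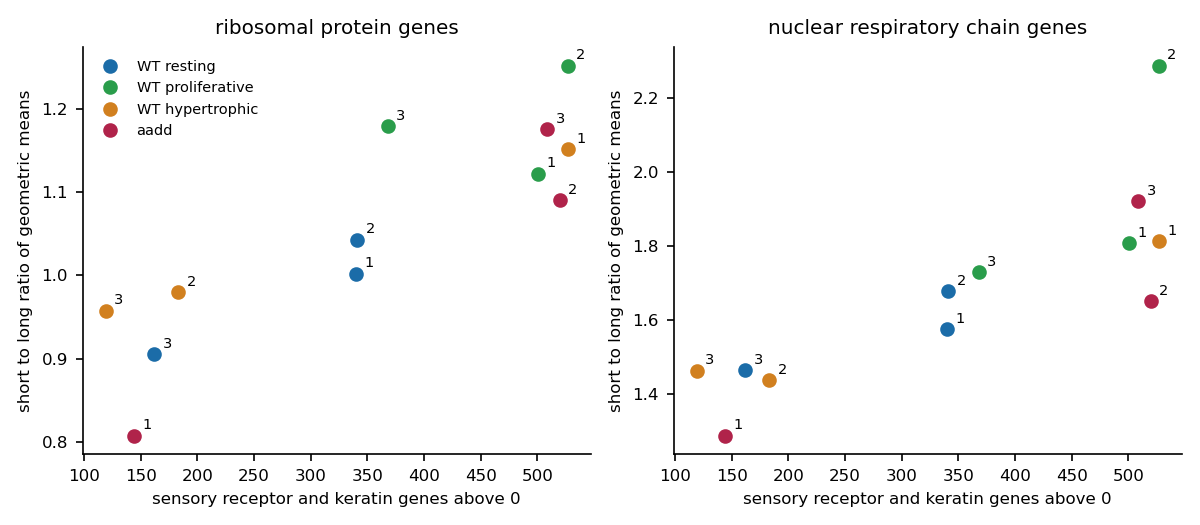
Ratio of the geometric mean level of short to long genes against the number of sensory receptor and keratin-associated genes above 0, with a point per library coloured by group and marked with its replicate number, for 80 ribosomal protein genes and for 73 nuclear respiratory chain genes. The 4 libraries at 119 to 183 such genes have ribosomal ratios of 0.808 to 0.980, and the 5 at 501 to 527 have 1.09 to 1.25.

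Comparisons over libraries on the same side of 200 such genes were added after the data were seen. For *aadd* replicates 2 and 3 against WT resting replicates 1 and 2, which still differed on the count (520 and 509 against 340 and 341), the median log2 fold change of the 82 genes was -0.19, larger than -0.14 over all libraries, and 0 genes were called. For WT hypertrophic replicate 1 against the 3 proliferative libraries it was 0.006, where all libraries gave -0.11. For WT hypertrophic replicates 2 and 3 against WT resting replicate 3 it was 0.13, where all libraries gave 0.035. In the last 2 the lone library is assumed to vary like the others. WT resting replicates 1 and 2 against the proliferative libraries gave 0.073.

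The genes rose and fell together across the 12 libraries to different degrees. Each gene was correlated with the median of the others on the log2 scale, as a description over libraries that share their depth and scaling. The median Pearson correlation was 0.687, and 56 of 82 were over 0.5. *Rpl27* (0.940) and *Rpl37a* (0.911) followed the family closely. *Rpl7a* (-0.094), *Rpl17* (0.051), *Rpl5* (0.115) and *Rps10* (0.127) followed it least, and these 4 were among the 5 genes that were lower in WT proliferative than in WT resting without overlap. Outside the family, the genes most like its median over 12 libraries were *Prcc* at 0.922, *Ppif* at 0.892 and *Enah* at 0.891. *Ppif*, which encodes the mitochondrial cyclophilin, was at 25.2, 25.7 and 11.0 NRPKM in WT resting, 40.2, 44.1 and 30.3 in WT proliferative, 42.0, 30 and 28.6 in WT hypertrophic and 13.9, 14.8 and 16.3 in *aadd*. *Myc*, which encodes a transcription factor that drives ribosome production, stood sixth at 0.861.

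Other genes of the protein synthesis machinery were read from lists. Among 14 tested genes for elongation factors and other TOP mRNAs, none was called at an unadjusted *P* up to 0.05 in any comparison, and the median log2 fold changes were 0.07 (WT proliferative against WT resting), -0.05 (WT hypertrophic against WT proliferative), 0.03 (WT hypertrophic against WT resting) and -0.16 (*aadd* against WT resting, with 13 of 14 lower). Without WT hypertrophic replicate 1, 1 was higher and 1 lower (7.14% each) in each comparison of the hypertrophic group. Over all rows 18.3% were higher and 16.1% lower against WT proliferative, and 18.7% and 21.4% against WT resting. The medians of the list were then -0.01 against WT proliferative and 0.02 against WT resting. *Eef1a1*, the most abundant elongation factor gene, was at 549 ± 32.7 NRPKM (SD, n = 3), 596 ± 28.9, 535 ± 21.9 and 514 ± 16.6 in the order of the groups. The ribosomal protein gene *Gnb2l1*, outside the symbol rule, was at 133 ± 2.91, 128 ± 7.43, 133 ± 9.36 and 121 ± 12.4 NRPKM.

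Of 35 ribosome biogenesis genes, 1 (2.86%, against 8.6% of all rows) was lower between WT hypertrophic and WT proliferative (*Ltv1*), 1 (2.86% against 12%) was higher between WT hypertrophic and WT resting (*Bysl*) and none differed in the other comparisons at an unadjusted *P* up to 0.05. Without WT hypertrophic replicate 1, 3 were higher and 1 lower in the first (8.57% and 2.86%, against 18.3% and 16.1% of all rows) and 3 higher and 0 lower in the second (8.57% and 0%, against 18.7% and 21.4%). Their median in *aadd* was -0.15, with 25 of 35 lower. *Myc* was at 66.9, 54.6 and 44.1 NRPKM in WT resting, 79.2, 66.2 and 59.4 in WT proliferative, 52.2, 54.0 and 46.2 in WT hypertrophic and 30.2, 29.2 and 43.3 in *aadd*. It was the only gene of 20 tested mTOR and Myc regulators (5%, against 4.36% of all rows lower) that differed between *aadd* and WT resting at that threshold, by -0.69 ± 0.24 (SE, limma adjusted *P* = 0.413), and the *aadd* libraries lay below all 9 WT libraries. It lost the threshold with a replicate block (adjusted *P* = 0.516) and without any one of resting replicates 1 and 2 and *aadd* replicates 1 and 2 (-0.69 to -0.54). *Mxi1*, which encodes an antagonist of Myc, was at 5.58 ± 0.575 NRPKM in WT resting, 2.90 ± 0.124 in WT proliferative, 8.47 ± 0.563 in WT hypertrophic and 5.50 ± 1.04 in *aadd*, lower by 0.92 ± 0.16 on the log2 scale in WT proliferative than in WT resting (adjusted *P* = 0.081) and higher by 1.51 ± 0.16 in WT hypertrophic than in WT proliferative (adjusted *P* = 0.0792, and 1.57 with 0.00746 without hypertrophic replicate 1). The mTOR kinase gene *Mtor* was at 15.6 ± 0.455, 12.8 ± 2.14, 17.1 ± 2.79 and 13.4 ± 1.31 NRPKM, and *Larp1* at 52.0 ± 7.70, 48.3 ± 9.88, 47.9 ± 1.45 and 45.6 ± 0.965. Among 14 genes of RNA polymerase I, which makes ribosomal RNA, 2 (14.3%, against 7.11% of all rows) were higher in WT proliferative than in WT resting (*Polr1b* and *Polr1e*) and none differed in *aadd*. In WT hypertrophic, 1 of them (7.14%, against 8.6% of all rows) was lower than in WT proliferative. Against WT resting, 1 was higher and 1 lower (7.14% each, against 12% and 14.4%). Without replicate 1, 2 were higher and 2 lower than in WT proliferative (14.3% each, against 18.3% and 16.1%). Against WT resting, 3 were then higher and 2 lower (21.4% and 14.3%, against 18.7% and 21.4%).

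Genes of mitochondrial protein synthesis and respiration were read in the same way. Of 74 mitochondrial ribosomal protein genes, 10 (13.5%, close to 12% of all rows) were higher and 0 lower (against 14.4%) in WT hypertrophic than in WT resting at an unadjusted *P* up to 0.05, 68 had a higher mean, and the median log2 fold change was 0.33 against 0.035 for the cytosolic genes. *Mrps6* was at 10.5 ± 1.13 NRPKM in WT resting, 11.9 ± 3.5 in WT proliferative, 28.1 ± 2.38 in WT hypertrophic and 13.2 ± 2.16 in *aadd*, and *Mrps36* at 17.5 ± 2.56, 27.3 ± 5.62, 39.8 ± 6.20 and 21.3 ± 4.08. For these 2 the limma adjusted *P* between WT hypertrophic and WT resting was 0.0102 and 0.0272, and 0.00577 and 0.0147 without hypertrophic replicate 1. Of 73 nuclear respiratory chain genes 34 (46.6%) were higher and 1 (1.37%) lower, against the same 12% and 14.4%, with a median of 0.58, and none had an adjusted *P* under 0.05. In *aadd* against WT resting the medians were -0.03 and 0.03. Of 29 translation initiation factor genes, 4 (13.8%, close to 12% of all rows) were higher in WT hypertrophic than in WT resting (*Eif1*, *Eif4e*, *Eif4g2* and *Eif3b*), with a median of 0.31 and none past adjustment. Without hypertrophic replicate 1, 18.7% of all rows were higher than in WT resting, and so were 15 of the mitochondrial ribosomal protein genes (20.3%, median 0.37), 48 of the respiratory chain genes (65.8%, median 0.67) and 7 of the initiation factor genes (24.1%, median 0.29). The 2 libraries kept there are those with high osteoclast, macrophage and endothelial genes (1351 and 995 NRPKM of osteoclast genes against 51.5 in replicate 1), whose part in these counts was not tested. The differences between these lists and the ribosomal protein genes were not tested.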

How the data were processed

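RNA from 12 libraries (4 groups of 3) was amplified with a NuGEN system, made into Nextera libraries and sequenced on an Illumina HiSeq. Reads of low quality, reads with several alignments and duplicates were discarded by the authors, who computed RPKM in GeneSpring against mm10. TopHat stands in the submitters' processing notes. The deposited RPKM values were normalized further between libraries (NRPKM). How, and whether strand was used, is not given in the sources used here. The genes and lists were chosen with earlier results of these data known.

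Analysis used limma 3.58.1 under R 4.3.3 on log2(NRPKM + 0.1), and Python 3.11.15 (numpy 2.4.6, pandas 2.3.3, scipy 1.17.1, matplotlib 3.10.9). The 10936 rows reaching 5 NRPKM in 3 or more of 12 libraries entered. Each comparison used its 6 libraries. Paralog ratios were compared by an exact permutation of the F statistic. Depth was estimated by taking the commonest value of sensory receptor and keratin-associated genes with a single exon as 1 read, and covers counting error only. Gene positions came with the deposited values (mm10), and transcript and coding lengths from the GENCODE vM21 annotation (GRCm38). The statistics were tested on simulated data.

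The main fits did not pair libraries by replicate number, and a replicate block was fitted as an alternative. Between WT resting and WT proliferative the deviations of libraries with the same number correlated at 0.281, 0.179 and 0.198. Such values do not establish a pairing, since *aadd* and WT resting replicate 2, of different genotypes, correlated at 0.280. Genes named are the 5 highest and 5 lowest, up to 4 each way per comparison with an unadjusted *P* up to 0.05 and no overlap, the paralog pairs, the X-linked genes, *Rps6*, *Rps19*, *Rpl5*, *Rpl11*, *Rplp0*, *Rpsa* and *Fau*, and the 3 most similar other genes. The rest were named after their values were seen. Some genes of the family are not reported here by name.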

Additional observations from a re-analysis of the deposited data

How the results depend on the processing

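Each result was computed again with 1 in place of 0.1 added, without a filter or with one taken over the 6 libraries, with libraries rescaled (median of ratios) or quantile normalized, in a joint fit of 12 libraries, with a variance trend, with the replicate block, and with single libraries left out. No gene given with a fold change in a pairwise comparison changed direction. Under quantile normalization the median log2 fold change of the genes went to -0.0007 (WT proliferative against WT resting) and -0.0095 (WT hypertrophic against WT proliferative). The comparisons over libraries on the same side of 200 sensory genes, chosen after seeing the data, gave 0.0064 (WT hypertrophic against WT proliferative) and 0.1349 with 2 genes called (WT hypertrophic against WT resting). Leaving out a library gave medians of 0.0734 to 0.1964 (WT proliferative against WT resting), -0.1873 to -0.0678 (WT hypertrophic against WT proliferative), -0.0190 to 0.0831 (WT hypertrophic against WT resting) and -0.2027 to -0.0889 (*aadd*), with 1 to 2, 0, 1 to 2 and 0 to 1 genes called (2 without WT resting replicate 1 or WT hypertrophic replicate 3 in the third, and 1 without WT resting replicate 1 or 2 in the last). The count for WT proliferative against WT resting was 1 without WT resting replicate 2, WT proliferative replicate 1 or WT proliferative replicate 3, and 1 with the filter over the libraries compared, which does not keep *Rpl39l*.

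The F test over 4 groups called 2 genes with no filter, 2 under quantile normalization and 3 with the replicate block, and 2 to 12 with a library left out (5 without WT resting replicate 3, WT hypertrophic replicate 2, *aadd* replicate 1 or *aadd* replicate 2, 3 without WT proliferative replicates 1 or 3, and 2 without WT proliferative replicate 2). The paralog ratios came under an adjusted *P* of 0.05 by quantile normalization for *Rps27l* (range of group means 1.01), *Rpl39l* (5.58) and *Rpl7l1* (0.51), and for *Rpl39l* with a pseudocount of 1 (2.80). For *Rpl39l* these count as no support for a difference because of the filter, and the adjustment for the other pairs counts its pair. With a library left out the ranges were 0.7294 to 1.3084 for *Rps27l*, 4.3128 to 5.7521 for *Rpl39l*, 0.5337 to 0.8465 for *Rpl22l1* and 0.2608 to 0.3895 for *Rpl7l1*. The causes were not tested. In the comparisons other than WT proliferative against WT resting same-numbered libraries did not all deviate together (*r* from -0.097 to 0.280), and the block left the count of genes called in each pairwise comparison as it was. With 3 libraries against 3, a gene's change had a median SE of 0.166 to 0.174, which limits what could be seen of shifts as small as the family's.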
